A study of Mus musculus with 7 samples.

Results

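The open chromatin described here lies in and around 10 mouse genes by which hematopoietic stem cells are recognised or regulated. These were Cd34, Procr, Slamf1, Cd48, Ly6a, Prom1 and Eng, which encode proteins of the cell surface, Mecom and Hlf, which encode transcription factors, and Fgd5, which encodes a guanine nucleotide exchange factor. The genes were chosen by name, as 10 of 21938 protein-coding genes, and the rule by which their OCRs were taken uses no measured value, although the list was drawn up with earlier results of these data known. For each gene, every open chromatin region (OCR) that overlapped the gene body or the 50 kb on either side was taken (mm10, gene records of GENCODE M21). That gave 198 distinct OCRs of the 144931 found in all, after peaks of all libraries were merged wherever they overlapped by at least 1 bp. OCRs were called by ATAC-seq, in which a transposase places sequencing adapters into accessible DNA. The cells were HPC7, a mouse hematopoietic progenitor line, grown with stem cell factor and calf serum. All 7 libraries, HPC7-1, -2, -4, -5, -6, -7 and -8, carry no treatment in their labels and came from separate culture batches, so they were taken as 1 group. The line is a model of blood progenitors kept in culture, not a stem cell population taken from bone marrow. The p-values given here measure the spread between these libraries of 1 line. Peak names inside the lists carry VD in HPC7-1, -2 and -4 and EtOH in the other 4 libraries, letters that the labels do not explain, and they were not used to form groups. Whether a treatment is part of the spread between libraries was not tested.

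Hematopoietic stem cells are rare, and in mice they are found by the surface proteins they carry or lack. CD150 (Slamf1), EPCR (Procr), Sca-1 (Ly6a) and endoglin (Eng) are used as positive marks, CD48 marks progenitors that have left the stem cell state, and CD34 is low on adult mouse stem cells with the longest-lasting activity. Mecom and Hlf are needed for stem cell maintenance, and Fgd5 has served as a reporter gene for these cells. An active gene usually has open chromatin at its promoter and, in blood cells, at distal elements that bind GATA, ETS, RUNX and E-box factors. Open chromatin does not measure transcription, and a distal OCR near a gene may act on another gene.

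For each gene with a distal OCR of high intensity, the sequence at the summit shows what letters the element holds, and it is printed here from mm10 as the 161 bases centred on the summit, in the direction of the gene. Capitals mark matches, on either strand, to the letters that members of several factor families are known to bind. Those of the GATA family were read as AGATAA, those of the ETS family as AGGAAG and those of the RUNX family as TGTGGT. The E-box was read as CAGCTG or else as CAGATG, and the AP-1 site as TGANTCA. The PAR bZIP family, to which Hlf belongs, was read as TTACGTAA or TTACATAA. The CTCF core was searched as well and had no match in these windows. The regions are, in order, an OCR in a Cd34 intron (chr1:194946567-194946727, plus strand), one before Procr (chr2:155743093-155743253, plus strand), one in a Mecom intron (chr3:30354170-30354330, minus strand), one before Hlf (chr11:90417978-90418138, minus strand), one behind Slamf1 in an intron of Cd84 (chr1:171845481-171845641, plus strand), one before Cd48 (chr1:171660520-171660680, plus strand) and one before Eng (chr2:32638053-32638213, plus strand).
Cd34 +7.83 kb: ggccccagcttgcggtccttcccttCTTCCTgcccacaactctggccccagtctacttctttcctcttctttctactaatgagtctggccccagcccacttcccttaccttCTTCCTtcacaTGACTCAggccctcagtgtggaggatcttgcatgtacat
Procr -7.94 kb: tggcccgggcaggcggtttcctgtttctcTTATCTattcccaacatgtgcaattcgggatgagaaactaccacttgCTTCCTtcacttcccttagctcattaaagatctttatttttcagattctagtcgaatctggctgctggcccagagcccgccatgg
Mecom +194 kb: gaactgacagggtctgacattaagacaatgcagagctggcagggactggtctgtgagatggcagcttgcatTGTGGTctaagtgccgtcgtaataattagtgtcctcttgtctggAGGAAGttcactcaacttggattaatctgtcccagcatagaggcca
Hlf -27.2 kb: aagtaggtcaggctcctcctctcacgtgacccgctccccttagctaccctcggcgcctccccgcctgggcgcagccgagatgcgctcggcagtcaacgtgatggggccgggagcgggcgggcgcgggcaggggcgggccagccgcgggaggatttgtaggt
Slamf1 +78.4 kb: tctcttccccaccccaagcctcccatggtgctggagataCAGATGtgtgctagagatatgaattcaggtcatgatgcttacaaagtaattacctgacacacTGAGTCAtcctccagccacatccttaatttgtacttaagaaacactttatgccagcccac
Cd48 -21.4 kb: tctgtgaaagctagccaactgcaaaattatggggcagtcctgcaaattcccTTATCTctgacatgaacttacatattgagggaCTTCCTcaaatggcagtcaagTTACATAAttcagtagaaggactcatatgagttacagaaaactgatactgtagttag
Eng -8.46 kb: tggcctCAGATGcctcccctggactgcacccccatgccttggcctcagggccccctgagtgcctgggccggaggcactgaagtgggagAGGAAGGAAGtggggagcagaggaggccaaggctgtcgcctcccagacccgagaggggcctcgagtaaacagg

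The Procr and Cd48 windows each held a GATA match and an ETS match, and the Cd48 window held the PAR bZIP letters as well. In the Procr window the GATA match lay at bases 30 to 35 and the ETS match at bases 77 to 82, counted from 1 at the 5′ end. The Mecom window held a RUNX and an ETS match, the Eng window 2 ETS matches that share letters and the E-box CAGATG, the Cd34 window 2 ETS matches and an AP-1 match, and the Slamf1 window the E-box CAGATG and an AP-1 match. None of the letters searched was found in the Hlf window. Over the wider 100 bp on either side of the summit, 13 of the 55 distal OCRs of these genes found in all libraries (23.6%) held a GATA match, beside 17.6% of the 40438 such distal OCRs of the genome. An ETS match was found in 50.9% beside 44.5%, a RUNX match in 29.1% beside 30.8%, the E-box CAGCTG in 7.27% beside 15.3%, the E-box CAGATG in 20% beside 20.1%, AP-1 in 7.27% beside 13.1%, and CTCF in 3.64% beside 6.85%. The PAR bZIP letters were found in 1 of the 55, the Cd48 OCR printed above, and in 0.695% of all. A match shows letters only and does not show that a factor was bound.

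The promoters of 8 of the 10 genes were open in all 7 libraries, that of Prom1 in 1 library and that of Ly6a in none. A promoter OCR is one that overlaps the 3 kb on either side of any annotated transcript start. Among all protein-coding genes, 60.8% had a promoter OCR in all libraries and 32.0% had one in no library. With 1 kb on either side the count stayed at 8 of 10, beside 55.9% of protein-coding genes. Intensity was the fold enrichment of the summit over the library's background, and to compare libraries it was read as a percentile, the share of the peaks of the same library with a lower fold enrichment. A gene without a promoter OCR was given 0. The lists held between 84593 (HPC7-6) and 132852 (HPC7-1) peaks, and the background computed from them was between 4.44 and 20.4 reads. Read depth was not in the lists and was not analysed here. A longer list holds more weak peaks and so lifts the percentile of every other peak. With 84593 peaks taken from every library the mean promoter percentile of Procr was 53.3 in place of 61.8 and that of Slamf1 was 67.7 in place of 73.8.

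**Figure D1:**
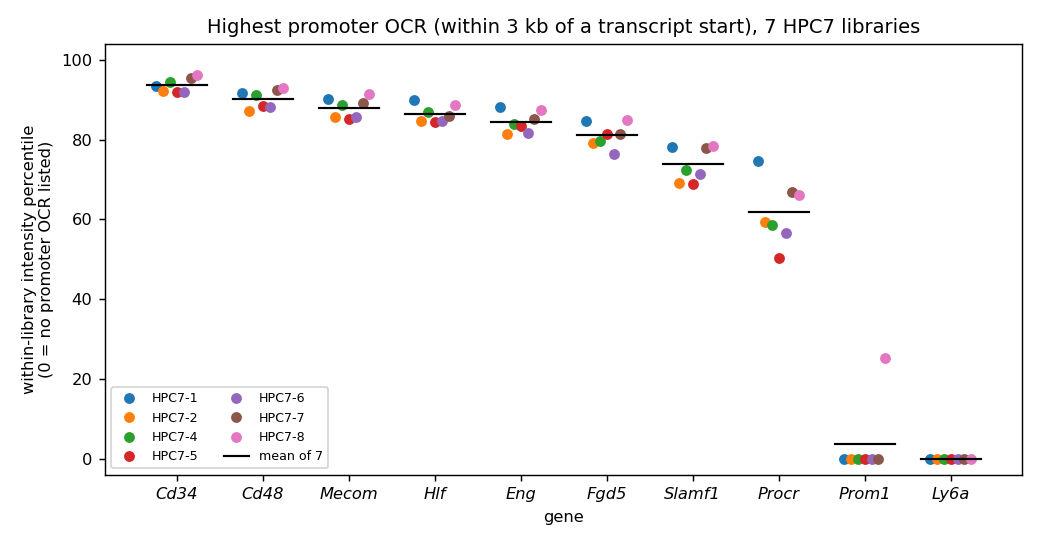
Within-library intensity percentile (vertical axis, 0 where no OCR was listed) of the highest promoter OCR of each of the 10 genes (horizontal axis), with 1 point for each of the 7 libraries and a bar at their mean. Means run from 93.7 for Cd34 to 61.8 for Procr, Prom1 has 1 library above 0, and Ly6a has none.

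Of the surface proteins, Cd34, a sialomucin of progenitors and endothelium, had the most intense promoter of the 10 genes. Its fold enrichment was lowest in HPC7-6 at 55.8, had a median of 85.4 and was highest in HPC7-8 at 109 (mean 82.2 ± 16.9 SD, n = 7), from 356 to 1679 reads at the summit. The percentile was 92.0 to 96.2 with a median of 93.6 (mean 93.7 ± 1.70 SD, n = 7), and no library fell below 92. Cd48, which encodes the SLAM-family ligand of CD244, followed at 87.1 to 92.9 with a median of 91.2 (mean 90.2 ± 2.29 SD, n = 7), with a mean fold enrichment of 57.5 ± 11.7 (SD, n = 7). The summit of that OCR lay 0.254 kb before the Cd48 start in an exon of the noncoding gene A630035G10Rik, so the promoters of both genes share it. Eng, which encodes endoglin, an accessory receptor for ligands of the TGF-β family, was at 81.5 to 88.3 with a median of 84.0 (mean 84.5 ± 2.65 SD, n = 7) and a mean fold enrichment of 32.4 ± 6.28 (SD, n = 7).

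Slamf1 and Procr had promoter OCRs that were found in every library but were weaker. The Slamf1 promoter, of the receptor CD150, was at 69.0 to 78.3 with a median of 72.3 (mean 73.8 ± 4.24 SD, n = 7), with a mean fold enrichment of 15.4 ± 2.55 (SD, n = 7). The Procr promoter, of the receptor of protein C, was at 50.3 in HPC7-5, 74.8 in HPC7-1 and at a median of 59.3 (mean 61.8 ± 8.03 SD, n = 7). Its fold enrichment was 7.35 to 13.0 with a median of 9.19 (mean 9.60 ± 2.03 SD, n = 7), and its summits held 44 to 277 reads. On the percentile scale Procr had the widest spread (SD) over libraries of the 8 open promoters, and that percentile was highest in the library with the most peaks.

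Prom1 and Ly6a were the genes without a shared promoter OCR. Prom1 encodes CD133, a protein of membrane protrusions, and Ly6a encodes Sca-1, a lipid-anchored protein used to sort mouse stem cells. At Prom1 a peak of 27 summit reads with a fold enrichment of 4.08 and a percentile of 25.4 was listed in HPC7-8 and in no other library. It lay 2.31 kb before the 5′ end of the gene (chr5:44104241-44104483), also within the promoter window of the noncoding gene Gm42966, and within 1 kb of the 8 groups of Prom1 starts no library had a peak. At Ly6a (chr15:74994877-74998031, minus strand) no peak overlapped the promoter or the gene body in any of the 7 lists. An absent peak means that the enrichment did not pass the authors' threshold at the depth of that library, not that the DNA was closed in every cell.

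Among the regulators, Mecom and Hlf had close values. Mecom, a zinc finger transcription factor also known as EVI1 or PRDM3, was at 85.2 to 91.4 with a median of 88.7 (mean 88.0 ± 2.46 SD, n = 7) and had a mean fold enrichment of 45.8 ± 9.35 (SD, n = 7). Hlf, a bZIP transcription factor, was at 84.5 to 89.9 with a median of 86.0 (mean 86.5 ± 2.12 SD, n = 7) and had a mean fold enrichment of 39.1 ± 6.57 (SD, n = 7). Mecom was higher than Hlf in 7 of 7 libraries, by 1.53 ± 1.07 percentile points (SD, n = 7), although their ranges overlapped. Fgd5 was at 76.5 to 85.0 with a median of 81.3 (mean 81.1 ± 3.02 SD, n = 7) and had a mean fold enrichment of 24.6 ± 5.52 (SD, n = 7), at a start inside the gene that is described further on.

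The order of promoter intensity was therefore Cd34, Cd48, Mecom, Hlf, Eng, Fgd5, Slamf1, Procr, Prom1 and Ly6a. Each of the 45 pairs was compared by the difference within libraries with an exact sign-flip permutation test (two-sided, Benjamini-Hochberg adjusted over the 45 pairs). In all 28 pairs of the 8 genes with a promoter OCR in every library, the sign was the same in 7 of 7 libraries (exact p = 0.0156, the smallest that 7 libraries allow, adjusted p = 0.0160). How often pairs of other open promoters differ in this way was not tested. The count therefore gives the order of these genes and no trait particular to them. The steps between neighbours were 3.45 ± 0.929 from Cd34 to Cd48, 2.22 ± 0.802 from Cd48 to Mecom, 1.98 ± 1.02 from Hlf to Eng and 3.38 ± 1.22 from Eng to Fgd5 (percentile points, SD, n = 7). They were wider at the lower end, with 7.34 ± 3.06 from Fgd5 to Slamf1 and 11.99 ± 4.73 from Slamf1 to Procr (SD, n = 7). Since these signs held in every library, they held alike among the 3 libraries with VD and the 4 with EtOH in their peak names. A further 16 pairs set these 8 genes against Prom1 or Ly6a, where the value of 0 given to an unlisted promoter fixes the sign, and they are no comparison of intensities. Prom1 and Ly6a were the pair without a call (exact permutation p = 1), since both were at 0 in 6 libraries. With the 5′ end of each gene record alone, where Mecom and Fgd5 are at 0 as well, 15 pairs of open promoters remained to compare, and all 15 differed.

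Set beside all protein-coding genes, the 8 open promoters ranked between Procr and Cd34 as follows. The median promoter percentile was 80.8 over all protein-coding genes and 93.1 over those with a promoter OCR in all libraries. Cd34, with 93.7, was the member above the latter value. By mean promoter percentile, Cd34 was higher than 71.7% of protein-coding genes, Cd48 than 61.5%, Mecom than 56.7%, Hlf than 54.4%, Eng than 52.4%, Fgd5 than 50.1%, Slamf1 than 47.3% and Procr than 44.2%. Prom1 was higher than 34.1%. Ly6a, with a promoter OCR in no library, shared the lowest value with all such genes, 32.0% of protein-coding genes.

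Where a gene has several starts, the OCRs lay at some of them and not at others. In this paragraph a start counts as open where a peak lay within 1 kb of it. Mecom has 16 annotated starts in 7 groups. The open promoter of 88.0 was at the group of chr3:30509487-30509822 (minus strand), from which transcripts of the long form with the PR domain begin, and the OCR (chr3:30507078-30509684) extended into the first intron from there. The start farthest upstream, of a noncoding transcript 38.2 kb before that group, had no peak in any library. A group of starts at chr3:30013061-30013505, where transcripts of the short EVI1 form begin, was open in all 7 libraries at a lower intensity, with a percentile of 59.6 ± 6.75 and a fold enrichment of 8.75 ± 1.42 (SD, n = 7). Of the other 4 groups, 1 had peaks in 2 libraries and 3 had none within 1 kb, while within 3 kb of 2 of those 3 groups there were OCRs of 3 and of 4 libraries. At Hlf the main start was open, and a noncoding start 8.96 kb into the gene had an OCR of 51.7 ± 10.8 (SD, n = 7). At Eng a group of starts 26.2 kb into the gene had no peak in any library.

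At Fgd5, the start of the coding gene was without a peak and the promoter OCR belonged to an internal start. No library had a peak within 1 kb of the 5′ end (chr6:91978878) or of the other coding start 8.23 kb into the gene. The OCR that counted as promoter (chr6:92066038-92067795) covered the start of a noncoding transcript 88.6 kb into the gene. When the 5′ end of each gene record alone was taken as its start, Fgd5 and Mecom both fell to 0 and 6 of the 10 genes had a promoter OCR in all libraries, beside 56.7% of protein-coding genes read in the same way. The Fgd5 start is rich in CpG dinucleotides, as is that of Hlf, which was open. Both are printed from RefSeq (GRCm38.p6, the same assembly as mm10) with CG in capitals. The Hlf stretch, chr11:90390918-90391167 (minus strand, 26 CpG in 250 bases), ends at the base before the RefSeq start. The Fgd5 stretch, chr6:91978715-91978877 (plus strand, 14 CpG in 163 bases), ends at the base before the GENCODE start.
Hlf promoter, open in 7 libraries: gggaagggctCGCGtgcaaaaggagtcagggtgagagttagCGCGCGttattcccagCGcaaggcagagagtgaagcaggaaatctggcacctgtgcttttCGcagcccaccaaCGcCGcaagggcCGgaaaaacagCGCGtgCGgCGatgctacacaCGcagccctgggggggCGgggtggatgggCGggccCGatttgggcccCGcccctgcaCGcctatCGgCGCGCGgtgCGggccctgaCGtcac
Fgd5 promoter, no peak in any library: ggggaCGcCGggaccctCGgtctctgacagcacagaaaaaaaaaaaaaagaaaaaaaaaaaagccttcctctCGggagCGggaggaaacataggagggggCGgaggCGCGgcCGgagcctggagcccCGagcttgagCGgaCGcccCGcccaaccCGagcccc

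Composition was a property that the choice of genes did not use. Of the 10 genes, 9 were matched in the RefSeq promoter table. Over the 250 bases before to 50 after the start, the ratio of observed to expected CpG was 0.893 for Hlf and 0.973 for Fgd5, beside a median of 0.749 for protein-coding genes with a promoter OCR in all libraries and 0.214 for those with none. The promoters of Cd34 (0.374), Cd48 (0.417), Slamf1 (0.223), Eng (0.202) and Procr (0.528) were open in all libraries with ratios below the median of 0.598. That median is over 16539 protein-coding gene records, matched by symbol to 16522 RefSeq promoters. The Mecom promoter of the long form had a ratio of 1.02, but no OCR overlapped these 300 bases, and that of the short form, open in all libraries, had 0.488, and the 2 Prom1 promoters had 0.410 and 0.211. Of the sequences that an OCR overlapped, that of Hlf was the one with a ratio above 0.598.

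Distal OCRs, defined as OCRs at no promoter of any annotated gene, made up 118 of the 198. Of these, 55 (46.6%) were found in all 7 libraries, beside 41.9% of all distal OCRs of the genome, and 24 of the 55 (43.6%) had a mean percentile of at least 75, beside 26.3% genome-wide. The median of the 55 was 70.7, beside 60.5 over all distal OCRs of all libraries. Distal OCRs found in 2 to 6 libraries had a median of 20.6.

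**Figure D2:**
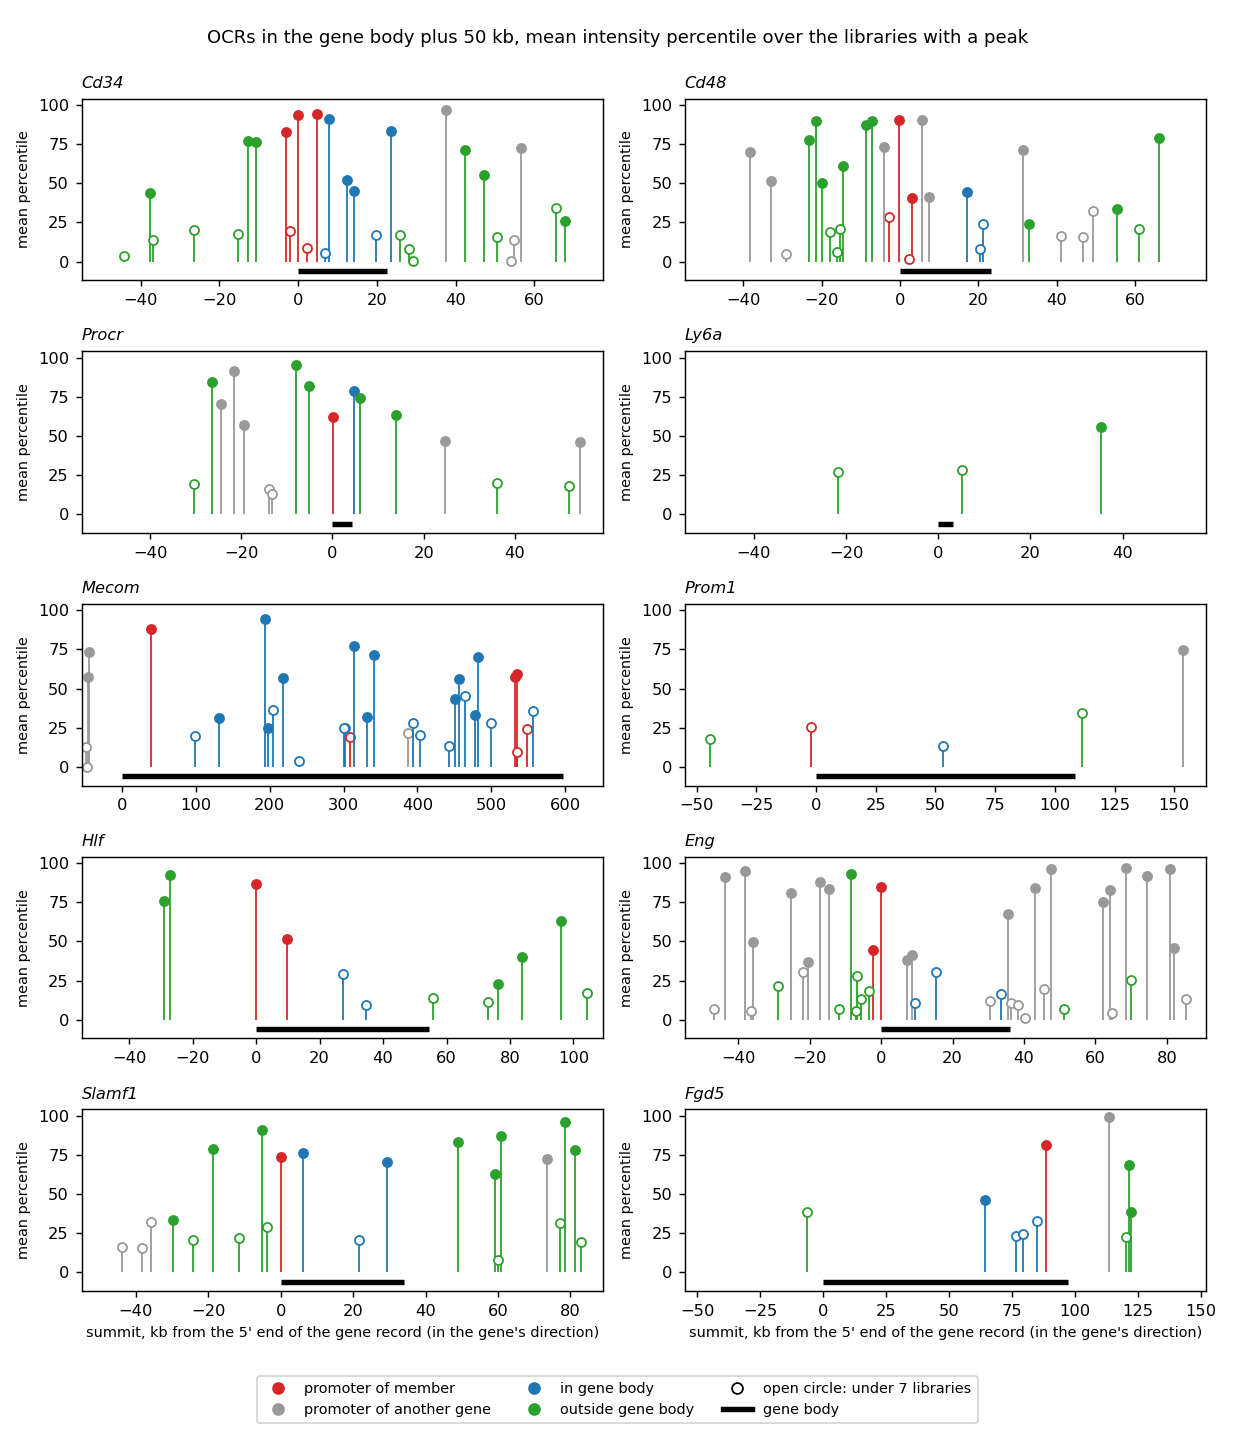
Each panel shows 1 gene with its OCRs by the distance of the summit from the 5′ end of the gene record (horizontal axis, kb, in the direction of the gene) and the mean within-library intensity percentile (vertical axis) over the libraries with a peak. Colour gives the class of the OCR, filled circles are OCRs of all 7 libraries, open circles are OCRs of fewer, and the black bar is the gene body. Cd34, Cd48, Slamf1 and Procr have rows of filled distal circles, while Ly6a has 1 and Prom1 has none.

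In the windows of Procr and Slamf1, distal OCRs exceeded the promoter by a wide margin. The OCR 7.94 kb before Procr (chr2:155742064-155743991) had a fold enrichment of 69.5 to 119 with a median of 94.2 (mean 94.0 ± 15.4 SD, n = 7) and a percentile of 94.98 ± 1.03 (SD, n = 7), where the promoter had 61.8. Other Procr OCRs of all libraries were 5.18 kb before the start (82.0 ± 2.99) and 26.3 kb before it in an intron of Edem2 (84.6 ± 3.05, SD, n = 7). The ranges of the promoter and of the OCR at 7.94 kb did not overlap.

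Slamf1 and Cd48 lie beside each other on chromosome 1 in the SLAM cluster. The OCR 78.4 kb behind the Slamf1 start (chr1:171844734-171846201), in an intron of the neighbouring gene Cd84, had a fold enrichment of 80.1 to 134 with a median of 112 (mean 108 ± 19.2 SD, n = 7) and a percentile of 96.1 ± 0.740 (SD, n = 7). It was the most intense distal OCR of all 10 windows, and it lies nearer to the Cd84 promoter than to that of Slamf1. Other Slamf1 OCRs of all libraries lay 5.08 kb before the start (90.6 ± 2.00) and 60.8 kb behind it (86.8 ± 2.31, SD, n = 7). At Cd48 the OCRs 21.4 kb, 7.25 kb and 8.82 kb before the start had percentiles of 89.5 ± 1.56, 89.4 ± 2.19 and 86.9 ± 2.67 (SD, n = 7), close to that of the promoter. The highest mean of the Cd48 window, 90.3 ± 1.58 (SD, n = 7), was that of an OCR in a Cd48 intron 5.52 kb behind the start (chr1:171687144-171687921), which counted as a promoter of the noncoding gene Gm37010. The windows of Slamf1 and Cd48 shared 6 OCRs, of which 2 were found in all libraries.

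At Cd34 the open chromatin formed a series from before the start into the introns. The OCR over the start (chr1:194938163-194940395) had a percentile of 93.5 ± 1.62 (SD, n = 7). An OCR in the intron, with its summit 4.87 kb behind the start (chr1:194941765-194944200), had a percentile of 94.1 ± 1.43 (SD, n = 7) and was the higher of the pair in 5 of 7 libraries. It overlapped the 3 kb promoter window in HPC7-1 and HPC7-7 and lay outside it in the other 5 libraries, so that it was counted as promoter in some libraries and as distal in others. Farther in, the OCR at 7.83 kb had a fold enrichment of 39.1 to 74.1 with a median of 63.4 and a percentile of 91.0 ± 1.79 (SD, n = 7). An OCR that began inside the gene had its summit at 23.5 kb, past the 3′ end, and a percentile of 83.4 ± 2.79 (SD, n = 7). The OCR 12.8 kb before the start had a percentile of 76.9 ± 4.19 (SD, n = 7). The most intense OCR of the window was the promoter of the noncoding genes A330023F24Rik and Gm16897, at 97.0 ± 0.854 (SD, n = 7).

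Mecom and Hlf had intense distal OCRs too. In Mecom an intronic OCR 194 kb from the 5′ end of the gene record (chr3:30353484-30355100) had a fold enrichment of 55.4 to 117 with a median of 94.99 (mean 91.1 ± 22.1 SD, n = 7) and a percentile of 94.5 ± 1.54 (SD, n = 7). The next Mecom OCRs, at 314 kb and 342 kb, had percentiles of 77.4 ± 5.28 and 71.6 ± 5.90 (SD, n = 7). All 22 distal OCRs of the Mecom window lay inside the gene, and 11 of them were found in all libraries. For Hlf the OCR 27.2 kb before the start (chr11:90417547-90418671) had a fold enrichment of 49.0 to 84.4 with a median of 71.8 (mean 71.1 ± 12.1 SD, n = 7) and a percentile of 92.4 ± 1.16 (SD, n = 7). A further OCR 29.1 kb before Hlf was at 75.5 ± 5.80 and one 96.1 kb behind the start at 62.8 ± 6.45 (SD, n = 7), and no distal OCR inside the Hlf gene was found in all libraries.

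Eng had 1 distal OCR that was found in all libraries, 8.46 kb before the start (chr2:32637494-32638514), with a fold enrichment of 46.1 to 100 with a median of 78.1 (mean 74.99 ± 17.0 SD, n = 7) and a percentile of 92.7 ± 1.86 (SD, n = 7). Of the 42 OCRs in the Eng window, 28 were at promoters of other genes, since the window also holds St6galnac6, Ak1, Fpgs, Cdk9 and Sh2d3c, and the most intense was at the Cdk9 promoter (96.9 ± 0.960, SD, n = 7). Fgd5 had 3 distal OCRs of all libraries, which were weaker. The highest, 121 kb behind the 5′ end in an intron of Nr2c2 (chr6:92100043-92100627), was at 68.5 ± 8.05, and the one 64.1 kb into the gene was at 45.9 ± 10.3 (SD, n = 7). The most intense OCR of the Fgd5 window was the promoter of Nr2c2, with a percentile of 99.4 ± 0.201 (SD, n = 7).

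Ly6a and Prom1 had few OCRs of any kind. Of 3 OCRs around Ly6a, the one found in all libraries lay 35.2 kb behind the start (chr15:74962500-74962981) with a fold enrichment of 6.06 to 10.6 with a median of 7.48 and a percentile of 55.6 ± 9.07 (SD, n = 7). The others were found in 5 and in 2 libraries. Of 5 OCRs around Prom1, 2 were in HPC7-8 alone, so that 3 were left without that library. The one found in all libraries was at the promoter of 3 other genes, 154 kb from the Prom1 5′ end, with a percentile of 74.5 ± 5.60 (SD, n = 7). An OCR 112 kb from the 5′ end was found in 6 libraries at 34.5 ± 8.21 (SD, n = 6). The pair thus had low counts of OCRs as well as no shared promoter OCR.

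Of the 8 genes with a promoter OCR in all libraries, the highest distal OCR was more intense than the promoter in 5 and less intense in 1. The comparison took, within each library, the highest promoter peak and the highest distal peak of the window, and the sign was tested by exact permutation as before (two-sided, adjusted over the 19426 protein-coding genes with a peak in their window). Over those genes, with those that have no promoter OCR counted in, 37.8% had the distal OCR higher and 50.7% had the promoter higher. Counted in the same way, with Prom1 and Ly6a, the 10 genes gave 7 and 1. The distal side is a maximum over a longer stretch. The number of distal OCRs to take it from differed between genes, from 3 each at Ly6a and Prom1 to 22 at Mecom. The promoter was lower by 33.2 ± 7.21 percentile points at Procr and by 22.3 ± 3.68 at Slamf1 (SD, n = 7, 7 of 7 libraries each, exact p = 0.0156, adjusted p = 0.0184). It was lower by 8.23 ± 1.92 at Eng, 6.46 ± 2.32 at Mecom and 5.92 ± 1.38 at Hlf (SD, n = 7), again in 7 of 7 libraries with the same exact p. At Ly6a, which has no promoter OCR, and at Prom1 in 6 libraries, there was no promoter intensity to compare, and any distal peak decides the sign.

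Fgd5 was the gene with the opposite sign, where the internal promoter OCR was higher by 12.6 ± 5.78 percentile points (SD, n = 7) in 7 of 7 libraries (exact p = 0.0156, adjusted p = 0.0184). With the 5′ end as the start of record the sign turned, to -81.1, since that OCR was then distal. With 20 kb in place of 50 kb on either side the Fgd5 difference was 31.4. At Hlf the sign turned to 65.8 in the same windows, since the OCR 27.2 kb before the start was then outside. At Cd34 (0.414 ± 2.27, SD, n = 7, 4 of 7 libraries, exact p = 0.625) and Cd48 (0.328 ± 0.944, SD, n = 7, 4 of 7 libraries, exact p = 0.469) promoter and distal OCR were not told apart. For Cd34 the distal value was that of the intronic OCR at 4.87 kb in 5 of the 7 libraries. Where promoters of noncoding genes were left among the distal OCRs, a setting chosen after seeing the data, the Cd34 promoter was the lower in 7 of 7 libraries (difference -3.26, exact permutation p = 0.0156).

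**Figure D3:**
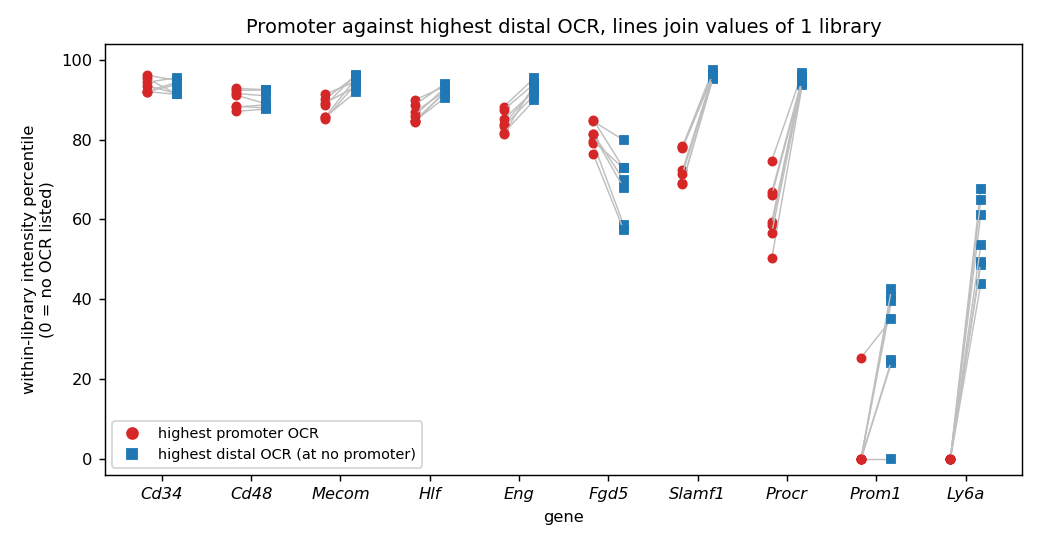
Within-library intensity percentile (vertical axis, 0 where none was listed) of the highest promoter OCR (circles) and the highest distal OCR (squares) of each gene (horizontal axis), with lines joining the values of 1 library. Squares lie above circles in all 7 libraries at Procr, Slamf1, Mecom, Hlf, Eng and Ly6a, and circles lie above squares in all 7 at Fgd5.

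The windows differed in how densely they were filled with OCRs. OCRs found in all libraries numbered 15.4 per 100 kb around Eng, 14.6 around Cd48, 12.2 around Cd34, 11.5 around Procr and 8.95 around Slamf1, beside a median of 4.96 over the windows of all protein-coding genes. The density was 4.53 around Hlf, 2.54 around Fgd5, 2.30 around Mecom, 0.969 around Ly6a and 0.480 around Prom1. The density of the Eng window was higher than that of 96.1% of protein-coding genes and that of the Prom1 window higher than that of 17.4%. Around Eng the OCRs at promoters of other genes made up most of the count, whereas around Slamf1 10 of the 12 OCRs of all libraries were distal.

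Of the 198 OCRs, 106 (53.5%) were found in all 7 libraries, beside 46.2% of all merged OCRs, and 31 (15.7%) in 1 library, beside 17.9%. By class, OCRs of all libraries were 15 of 23 at promoters of the 10 genes, 36 of 57 at promoters of other genes, 20 of 45 inside the gene bodies and 35 of 73 outside them. Of the 31 OCRs found in 1 library, 15 were in HPC7-1 and 10 in HPC7-8, the libraries with the longest lists, and 9 of those of HPC7-1 lay in the Eng window. These OCRs had a median percentile of 8.15, so that the OCRs without support from another library were weak ones. The part of library depth in this was not tested.

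**Figure D4:**
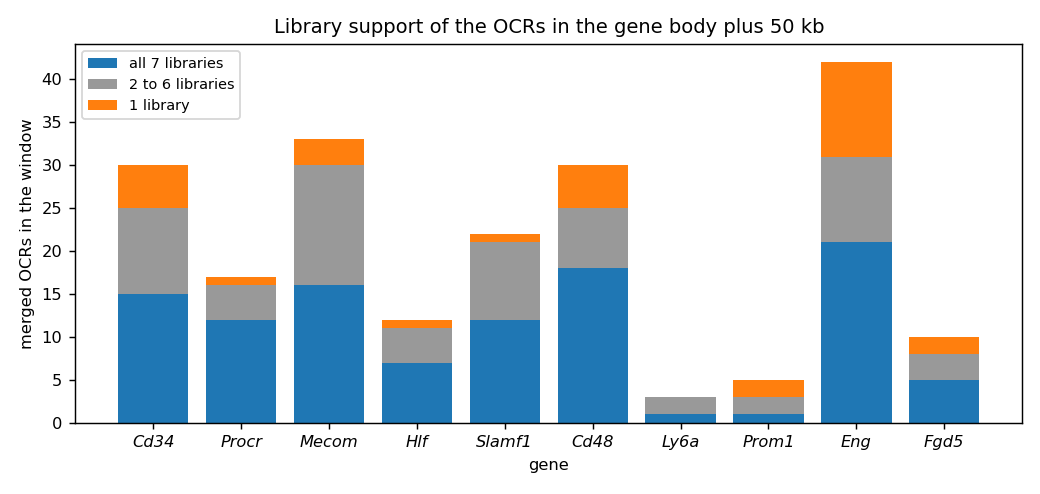
Number of merged OCRs (vertical axis) in the gene body plus 50 kb on either side of each gene (horizontal axis), split by how many libraries listed a peak. Eng has 42 OCRs and Mecom 33, of which 21 and 16 are of all 7 libraries, while Ly6a has 3 and Prom1 5 with 1 each.

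Genes of the same families and roles were read in the same way. Of 15 other surface genes of stem cells and early progenitors, 12 had a promoter OCR in all libraries, and of 16 other stem cell regulators, 13 did, beside the 60.8% of all protein-coding genes. Those without it, named after their values were seen, were Tek and Emcn (no library) and Robo4 (4 libraries) among the surface genes, and Hoxa9 and Nkx2-3 (no library) and Prdm16 (2 libraries) among the regulators. Of the SLAM family relatives of Slamf1 and Cd48, 6 of 7 had a promoter OCR in all libraries, and of the bZIP relatives of Hlf (Dbp, Tef and Nfil3), 3 of 3 did. Of the relatives of Fgd5 (Fgd1, Fgd2, Fgd3, Fgd4 and Fgd6), 4 of 5 did, and Fgd4 had a promoter OCR in 2 libraries. The same 60.8% is the share to read these counts against. Of 5 Ly6 relatives of Ly6a (Ly6c1, Ly6c2, Ly6d, Ly6e and Ly6g), none did, and Ly6d had a peak in 1 library. Genes of the Ly6 family, Ly6a included, are closely related copies, so that their values are uncertain wherever the authors' alignment could not place a read uniquely.

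Markers of blood and of other cell types were checked against the label of the line. All 8 blood markers (Ptprc, Spn, Spi1, Runx1, Lyl1, Kit, Vav1 and Cd53) had an open promoter in every library, as 60.8% of protein-coding genes did, at mean percentiles of 83.7 to 99.9. Of 25 markers of mature lineages and other tissues, 12 had a promoter OCR in all libraries and 10 had none, beside 60.8% and 32.0% of all protein-coding genes. Endothelial markers matter here because Cd34, Procr, Eng and Mecom are also genes of endothelium. Of the 4, Cdh5 (84.8 ± 3.15), Pecam1 (85.8 ± 2.40) and Tie1 (90.1 ± 2.29, SD, n = 7) had promoter OCRs in all libraries and Kdr had none. Their part in the values of the 10 genes was not tested.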

How the data were processed

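Each of the 7 libraries of bulk ATAC-seq had 1 peak list. The authors aligned trimmed reads to mm10 with BWA and ran MACS2 separately on every library, and versions were not given in the sources used here. The deposited values were a fold enrichment (a ratio of summit reads to background), a −log10 p-value, a −log10 q-value, a score made from the q-value and the summit offset, a whole number of bases. No scaling between libraries was applied here. Every fold enrichment was a whole multiple (within 0.05) of 1 step per library, which gave the reads at each summit. The smallest −log10 q-value of a deposited list was 1.36 to 1.73 and the smallest peak was 200 bp wide.

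Peaks were merged at an overlap of 1 bp. A promoter peak lay at least partly within 3 kb of a transcript start (GENCODE M21, 141730 transcripts), and a distal peak overlapped no promoter of any gene. An OCR merged over libraries took the class of its whole extent, while the comparison of promoter and distal peaks used the extent in each library. The percentile is the share of a library's peaks with a lower fold enrichment, and a tied peak counts with a weight of 0.5. Differences within libraries were tested with an exact sign-flip permutation test (128 sign patterns, two-sided, smallest p = 0.0156, threshold 0.05). The p-values for promoter against distal peaks had been planned to be adjusted over the 10 genes and were adjusted over all 19426 protein-coding genes with a peak in their window. The gene list, the other lists and the tests were chosen with earlier results of these data known. Named OCRs were the promoter OCR and up to 3 distal OCRs of all libraries with the highest mean percentile per gene, the OCR of another gene's promoter where it was the highest of a window, and members of the gene lists in counts of 5 or fewer. OCRs outside that rule (those of Prom1 and Ly6a in fewer libraries, the second promoter OCR of Cd34 and the other starts of Mecom and Hlf) and the markers were named after their values were seen.

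Sequences were read from GRCm38.p6, whose chromosome lengths hold all peaks, and from RefSeq promoters of that build. The script was tested on simulated peaks and against bedtools 2.31.1. Alternatives were a −log10 q-value of at least 5, equal numbers of peaks, 1 kb promoters, the 5′ end alone, windows of 20 kb and 100 kb, 50% reciprocal overlap, log10 fold enrichment or −log10 p-value as intensity, and each library left out in turn. Software was pandas 2.3.3, numpy 2.4.6 and scipy 1.17.1 under Python 3.11.15, with pysam 0.24.0 and matplotlib 3.10.9.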

Additional observations from a re-analysis of the deposited data

How the results depend on the processing

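Of 437 alternative values, 393 kept their direction and their side of the threshold or moved by less than the spread, 29 moved further, 7 were no longer past the threshold and 8 changed sign. The 198 OCRs became 128 with 20 kb and 305 with 100 kb on either side, and the 106 of all libraries became 66 with 20 kb, since the windows are shorter or longer. The count of genes with the promoter higher, 1, became 0 with the 5′ end alone and 2 with 20 kb. The count with the distal OCR higher, 7 with Prom1 and Ly6a, fell to 5 with 20 kb, where Hlf turned and Ly6a (-8.16) lost its call, and rose to 8 with the 5′ end alone, where Fgd5 turned, and to 8 where promoters of protein-coding genes alone were set aside, where Cd34 was called. Of the other called differences, those that moved by over 1.5 times in percentile points were Fgd5 (31.4, 20 kb), Mecom (-94.5, 5′ end alone), Ly6a (-99.9, 100 kb) and Prom1 (-70.9 with promoters of protein-coding genes alone set aside, -52.7 with 100 kb, -15.3 with equal numbers of peaks). Differing pairs of genes with a promoter OCR in all libraries, 28, were 15 with the 5′ end alone, since 6 genes were left. The promoter minus the highest distal percentile turned at Fgd5 (-81.1, 5′ end alone) and Hlf (65.8, 20 kb), where the alternative moves the OCR in question to another class or out of the window. At Cd34, which was not called with the settings of the report, it was -0.60 with 1 kb promoters and also with the 5′ end alone, -3.26 where promoters of protein-coding genes alone were set aside (lower in 7 of 7 libraries, called), and -0.186 without HPC7-7, with up to 0.847 without HPC7-2. At Cd48, not called either, it was -0.93 with 100 kb and -0.296 where promoters of protein-coding genes alone were set aside. The latter setting was chosen after seeing the data.

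Leaving out each library in turn gave 8 genes with a promoter OCR in all libraries each time, 187 to 199 OCRs, 106 to 111 OCRs in all remaining libraries, 44 differing pairs each time (16 of them fixed by a value of 0), 1 gene with the promoter higher and 6 to 7 with the distal OCR higher. The loss was at Prom1, where 6 libraries that include HPC7-5 could not reach the threshold. The 5 OCRs around Prom1 were 3 without HPC7-8. The absence of a peak at Prom1, Ly6a or the Fgd5 start is a statement about these lists, and the part of read depth in it was not tested. The libraries were taken as 1 group, so no groups of libraries were compared, and the tests used differences within libraries.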
